A study of Mus musculus with 4 samples.

Results

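The loci of 4 genes, Rn45s, Col19a1, Lrrc4c and Mir101c, were examined as places of wide SOX3 ChIP-seq peaks in repeated or high-copy DNA. Every row of the authors' table of common peaks whose nearest gene was 1 of these 4 genes was taken, which gave 22 of 778 common peaks. The members were chosen by the width, the score and the recurrence of their peaks in the deposited lists, so peak widths, scores and recurrence are given as descriptions, with no test. Chromatin immunoprecipitation with sequencing recovers the DNA bound to a protein, here the SOX3 transcription factor, and a peak is a stretch with more reads than its background. The 3 SOX3 ChIP samples, replicates 1, 2 and 3, came from testes of mice at postnatal day 7 on the 129/SvJ background, bred from a Sox3 null line of mixed background and taken at generation F6. The labels give no genotype for the single testes, and the 1 input sample, chromatin without antibody, shares strain, age and tissue. No value of the input was analysed here, so no signal of the input is given beside the peaks. Whether the authors called the peaks against the input is not stated in the labels or headers. With 1 group of samples there was no contrast to test.

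Ribosomal RNA genes stand in long tandem arrays, and RNA polymerase I copies each unit into a 45S precursor that is cut into the 18S, 5.8S and 28S RNAs. Rn45s is the name of such a precursor. Gamma satellite, listed as GSAT_MM in repeat annotations, is the main repeat of the heterochromatin next to mouse centromeres. An assembled genome holds only a small part of such arrays, so reads from many copies can be placed on the few that it holds. How many copies a sequence has in the animal and how often each copy is bound cannot be told apart in peak lists.

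The other 3 gene names are those of the nearest annotated start site. Col19a1 encodes a collagen of the fibril-associated group, and Lrrc4c a neuronal adhesion protein that binds netrin-G1. Mir101c encodes a microRNA of the miR-101 family. The mouse assembly is known to hold, near Col19a1, a long nuclear copy of mitochondrial DNA; this is background, and the files annotate no repeat at that peak.

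Mature miR-101c is printed beside its relatives because its gene lends the larger satellite cluster its name. The sequences are from RefSeq on GRCm38.p6, 5′ to 3′, with the seed (bases 2 to 8) in capitals.
mmu-miR-101c: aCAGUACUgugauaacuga
mmu-miR-101a-3p: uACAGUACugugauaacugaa
mmu-miR-101b-3p: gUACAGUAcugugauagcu
The 19 bases of miR-101c are contained whole in miR-101a-3p, starting at its base 2, so the annotated seeds are offset by 1 base. No 2 of the 3 annotated seeds were the same. The peaks lie beside this gene and do not cover it.

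The label of the loci was checked against the annotation that came with the peaks. Of the 22 common peaks, 19 lay in satellite repeats, 17 of them in GSAT_MM and 2 in the satellite SYNREP_MM. The Rn45s peak was annotated to exon 1 of 1 of the non-coding transcript NR_046233. The Col19a1 peak was intergenic, and 1 peak was annotated to the end of the Mir101c transcript. Copy number itself was not measured in the files. All 22 peaks were at least 429 bp wide, against a median of 280 bp over all 778 common peaks, and their own median was 926 bp. A width of 1000 bp or more was reached by 10 of the 22, against 40 of all 778 (5.14%). The threshold of 1000 bp was not part of the rule, but width helped to choose the members, so this contrast is a description.

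The peak lists of replicates 1, 2 and 3 held 2912, 2598 and 2734 peaks, and their read depth is unknown. The authors' score of a peak had a minimum of 40 in each list, and no source used here names its scale, so it was read only within a list. The 4 loci, with 10 kb on each side, held 23 peaks of replicate 1, 3 of replicate 2 and 26 of replicate 3. These made up 0.790, 0.116 and 0.951% of the peaks of each list. By length they made up more, 5.66, 2.15 and 5.82% of the base pairs that each list covered. Of the peaks of 2000 bp or more, 6 of 14 in replicate 1, 3 of 9 in replicate 2 and 3 of 11 in replicate 3 lay in these loci.

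The Rn45s peak was the widest common peak found in all 3 lists. It lay on chromosome 17 (mm9) from 39979857 to 39985845, a length of 5989 bp, and ranked 2 in width among all 778 common peaks. Its widths in replicates 1, 2 and 3 were 5980, 5922 and 5837 bp, a mean of 5913 ± 71.9 bp (SD, n = 3). Its scores were 1014, 205 and 579, ranks 9, 71 and 17 of the respective lists. The width thus varied little between replicates, while the place of the peak in each list was high in replicates 1 and 3 and lower in replicate 2.

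The upstream edge of the Rn45s peak lay close to the annotated start of the transcript. The distance that HOMER gave placed the start site at 39979942. The peak began 76, 85 and 2 bp upstream of it in replicates 1, 2 and 3, and ended 5903, 5836 and 5834 bp downstream. The 3 peaks had 5837 bp in common, which was the whole peak of replicate 3. No other peak of any list lay within 10 kb, or within 50 kb, of it.

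The Col19a1 peak had the same form. It lay on chromosome 1 (mm9) from 24618333 to 24623038, its midpoint 26409 bp upstream of the Col19a1 start site, and ranked 3 in width among the common peaks. Its widths were 4652, 4706 and 4679 bp in replicates 1, 2 and 3, a mean of 4679 ± 27.0 bp (SD, n = 3). Its scores were 584, 78.4 and 505, ranks 20, 327 and 20 of their lists. The starts of the 3 peaks spanned 41 bp and the ends 15 bp. As at Rn45s, the score ranked lower in replicate 2 than in the others, and the peak there was no narrower. The lists held 0 peaks on the mitochondrial chromosome.

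**Figure D1:**
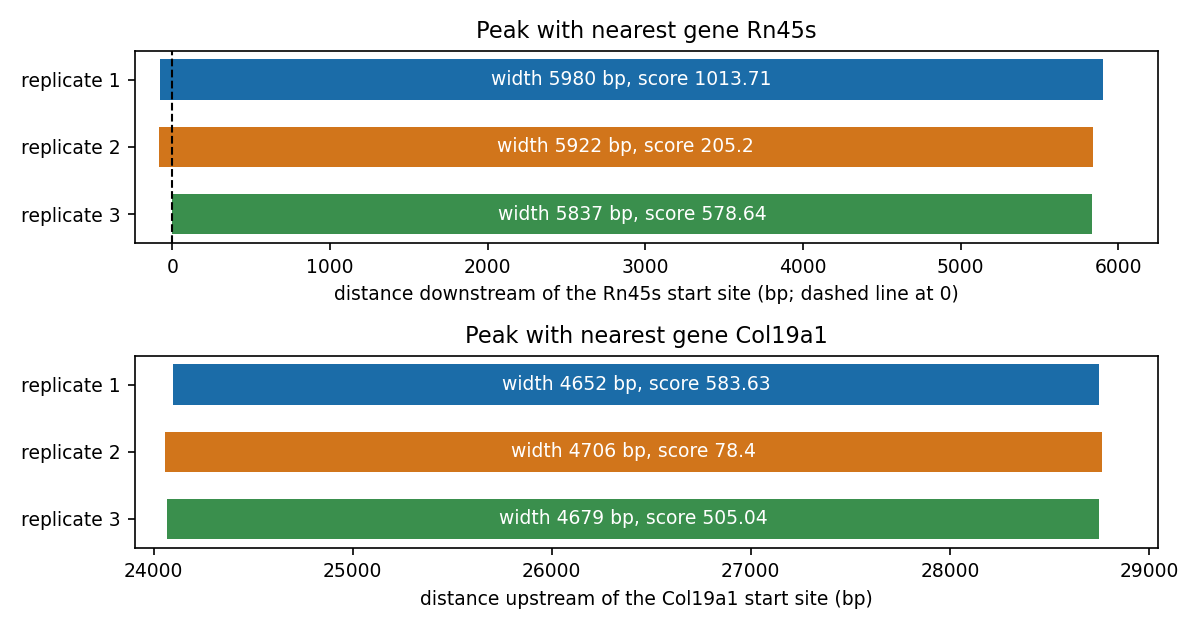
Extent of the Rn45s and Col19a1 peaks in each replicate list, in bp from the start site of the named gene; each bar is 1 peak, with its width and the authors' score written in it. The bars span 5837 to 5980 bp at Rn45s and 4652 to 4706 bp at Col19a1, and their ends nearly coincide.

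The satellite cluster near Mir101c held most of the members, with 16 common peaks on chromosome 9 (mm9) between 2999999 and 3038423. As background, this is where the assembled sequence of the chromosome begins, next to its centromere. Its midpoints lay 760 to 37641 bp downstream of the Mir101c start site, and the nearest edge 320 bp from it. The 16 peaks covered 22758 bp, or 59.2% of a span of 38425 bp. The gaps between neighbours ran from 52 to 5148 bp, with a median of 404 bp, and 7 of the 15 gaps were under 200 bp. Of the 16 widths, 5 lay between 800 and 830 bp and 3 between 880 and 910 bp, while the widest peak had 4206 bp.

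Peaks of this cluster were numerous in replicates 1 and 3 and nearly absent from replicate 2. The lists held 17, 1 and 20 peaks there, a mean of 12.7 ± 10.2 (SD, n = 3), and they covered 25849, 2207 and 22652 bp. All 16 common peaks were in the lists of replicates 1 and 3, and 1 was also in that of replicate 2. This was the first of the cluster, from 2999999 to 3002205. It scored 170 in replicate 1, 40.06 in replicate 2 and 211 in replicate 3. The score in replicate 2 ranked 2594 of 2598, next to the lowest value of the list. The first peak was the highest of the cluster in replicates 1 and 3.

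The other Mir101c peaks had moderate scores, and their order was alike in replicates 1 and 3. The peak of 4206 bp from 3024620 to 3028825 scored 152.5 in replicate 1, and in replicate 3 it was split into 3 peaks, the best of which scored 127. The peak of 2811 bp from 3031000 to 3033810 scored 129 in replicate 1, and it overlapped 2 peaks of replicate 3 with a best score of 99.4. The lowest scores of the cluster, 41.7 and 47.6, belonged in both lists to the peak from 3036841 to 3037472. Over the 14 common peaks with 1 peak in each list, the scores of replicates 1 and 3 had a Pearson correlation of 0.943 and a Spearman correlation of 0.952. Without the first peak the values were 0.741 and 0.940. These 14 points share a cluster, a repeat and a pair of libraries, so the values are a description.

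Each of the replicates 1 and 3 also had 1 peak in the Mir101c cluster that the other lacked. In replicate 1 it ran from 3004772 to 3007862, was 3091 bp wide and scored 93.0. In replicate 3 it ran from 3021875 to 3022536, was 662 bp wide and scored 73.2. Both lay inside the span of the common peaks.

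**Figure D2:**
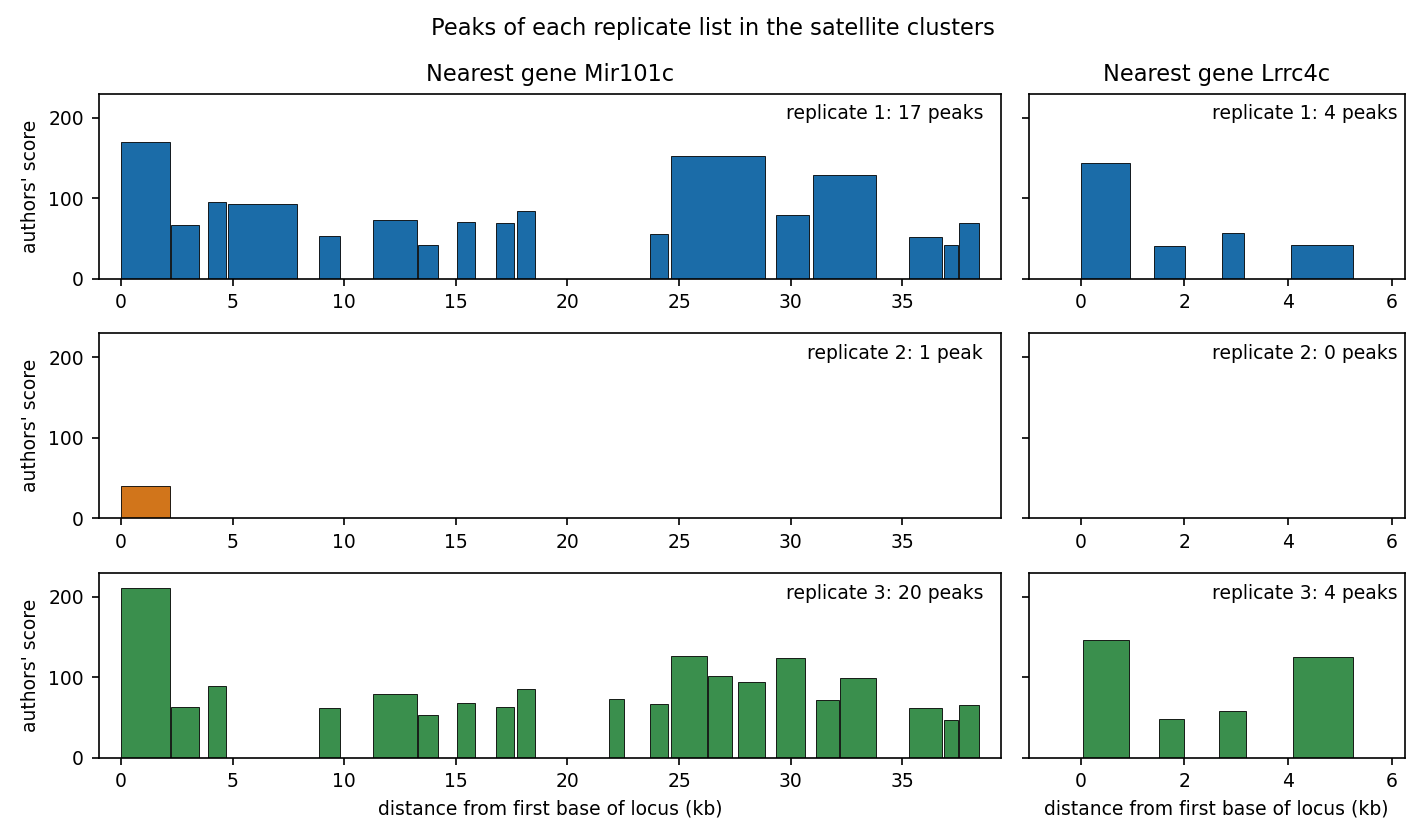
Peaks of each replicate list in the satellite clusters near Mir101c and Lrrc4c; the horizontal axis is the distance in kb from the first base of the locus, each bar is as wide as its peak and as high as the authors' score. Replicates 1 and 3 have 17 and 20 peaks near Mir101c and 4 each near Lrrc4c, and replicate 2 has 1 and 0.

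The peak edges in the Mir101c cluster were nearly the same in replicates 1 and 3. Of the 14 common peaks with 1 peak in each of these lists, 13 had both edges within 5 bp of each other. In those 13 the peak of replicate 3 began 2 bp later and ended 2 to 4 bp earlier than that of replicate 1. The exception was the peak from 3029354, whose ends differed by 204 bp. The single peak of replicate 2 had the edges of replicate 1 to the base, a difference of 0 bp.

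Close edges were not a general property of common peaks. Among 371 other common peaks with 1 peak in each of replicates 1 and 3, the larger edge difference had a median of 74.0 bp, and 20 (5.39%) were within 5 bp. Of the 45 of these that were at least 500 bp wide in both lists, 1 (2.22%) was within 5 bp. In the Lrrc4c cluster, also a satellite, the larger edge difference was 47 to 90 bp and no peak of 4 was within 5 bp. Tight edges were therefore seen at Mir101c and not at every satellite. The cause of the difference was not tested.

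**Figure D3:**
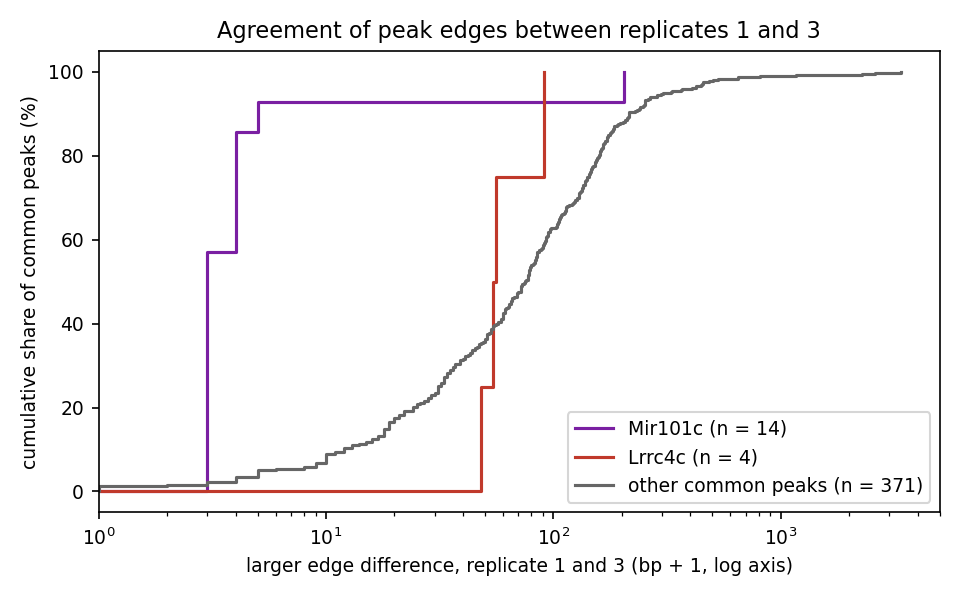
Cumulative share of common peaks, in percent, against the larger of the start and end differences between replicates 1 and 3, in bp plus 1 on a log axis; lines stand for Mir101c (14 peaks), Lrrc4c (4 peaks) and the other common peaks (371). The Mir101c line has risen to 13 of 14 peaks by 5 bp, while the other common peaks have a median of 74.0 bp.

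The Lrrc4c cluster was smaller and held 4 common peaks. It lay on chromosome 2 (mm9) between 98502288 and 98507542, more than a megabase from the gene whose name it carries, with midpoints 1194947 to 1199126 bp downstream of the start site. The lists of replicates 1, 2 and 3 held 4, 0 and 4 peaks there, which covered 3163, 0 and 3045 bp. Gaps between neighbours were 476 to 901 bp. The 4 common peaks covered 60.2% of the span, much like the share at Mir101c.

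Of the Lrrc4c peaks, 2 were annotated to SYNREP_MM and 2 to GSAT_MM, in alternation along the cluster. The first, a SYNREP_MM peak of 947 bp, had the highest score of the cluster in replicates 1 and 3, 144 and 147. The next SYNREP_MM peak, from 98505009, scored 56.7 and 57.7. The GSAT_MM peak from 98503711 scored 40.9 and 48.0 in replicates 1 and 3, near the minimum of the former list and near the median of the latter. The last and widest peak, a GSAT_MM peak of 1204 bp from 98506339, scored 42.0 in replicate 1 and 125 in replicate 3, ranks 2321 and 132 of their lists. The first peak, at ranks 124 and 107, stood high in both lists.

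Replicate 2 had few peaks at the satellite loci. Of the 22 common peaks, 3 were in all 3 lists, Rn45s, Col19a1 and the first Mir101c peak, against 233 of all 778 common peaks (29.9%). The 19 others were in replicates 1 and 3 and absent from replicate 2, which held 576 of the 778 common peaks (74.0%). Replicates 1 and 3 held 620 (79.7%) and 593 (76.2%) of them. The satellite peaks come from 2 clusters, so the 19 absences are not independent.

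The scores of the 3 recurrent peaks were set against the same 233 peaks found in every list. Rn45s ranked 9, 61 and 16 of 233 in replicates 1, 2 and 3. Col19a1 ranked 20, 155 and 19, and the first Mir101c peak 79, 232 and 55. All 3 thus had their lowest place in replicate 2, as did 71 of the 233 peaks (30.5%). Among the 230 other peaks, the ranks of replicates 1 and 2 differed by a median of 30.5 places, and 10% of them by more than 102.1. The 52 places of Rn45s between these replicates were reached by 74 of the 230 other peaks (32.2%), so its shift lay within the usual spread. The 135 places of Col19a1 were reached by 7 of them and the 153 places of the first Mir101c peak by 3. These shares are a description, since the score helped to choose the members.

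The same lack in replicate 2 was seen at other copies of ribosomal and satellite DNA. Outside the 4 loci, 14 common peaks lay in rRNA repeats and 2 in satellites, and all 16 were in replicates 1 and 3. Replicate 2 held 4 of them. All members were then added, 3 of which had no repeat annotation, the Col19a1 peak among them. Of the 38 peaks so pooled, replicate 2 lacked 31 (81.6%) and replicates 1 and 3 lacked 0. Of the 31, 19 are members, which were chosen partly by recurrence, so the pooled share is a description. A common peak is in at least 2 lists, so any that replicate 2 lacks is in replicates 1 and 3 by definition. Among the 740 remaining common peaks, replicates 1, 2 and 3 lacked 21.4, 23.1 and 25.0%. The lack was not confined to ribosomal and satellite DNA. The 6 common peaks of 1000 bp or more in LINE repeats, none of them members, were absent from replicate 2 as well. Some of these 6 shared a width or a score within a list, so their absences cannot be counted as independent. Of all 30 common peaks of 1000 bp or more outside the members, 14 were in all 3 lists. In LTR or LINE repeats of any width, replicates 1, 2 and 3 held 113, 112 and 122 common peaks. The cause of the lack in replicate 2 was not tested.

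Those other repeat peaks were narrower and weaker than the Rn45s peak. Of the 14 in rRNA repeats, 13 were in copies of the large subunit RNA (LSU-rRNA_Hsa) and 1 in a copy of the small subunit RNA (SSU-rRNA_Hsa). Their widths ran from 174 to 1094 bp. The small subunit copy, on chromosome 6 from 3150681 to 3151774 with Gm8579 as nearest gene, was the widest and scored 107, 67.8 and 80.4. The other 3 found in every list were LSU copies near Filip1l (119, 43.5 and 101), Txndc11 (88.7, 49.6 and 58.0) and Pex2 (58.95, 48.8 and 42.8). The remaining LSU peaks, in replicates 1 and 3 alone, had Aldh9a1, Axin2, Dtnbp1, D130009I18Rik, Cerk, Arhgap21, Cntnap2, Sspn, Myom2 and Tspan3 as nearest genes.

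The 2 other satellite peaks stood alone rather than in a cluster. A GSAT_MM peak on chromosome 9 from 35112757 to 35113275, nearest to 4933422A05Rik, scored 75.8 in replicate 1 and 80.2 in replicate 3. A SYNREP_MM peak on chromosome 6 from 103599006 to 103599368, nearest to Chl1, scored 41.6 and 57.3. Both were narrower than most members, with 519 and 363 bp.

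At a high score the members were wider than most other common peaks. Among other common peaks with a score of 500 or more, widths ran from 658 to 1070 bp in replicate 1 (23 peaks), from 416 to 889 bp in replicate 2 (14 peaks) and from 406 to 943 bp in replicate 3 (18 peaks). Rn45s and Col19a1 reached that score in replicates 1 and 3 with widths of 4652 to 5980 bp. At a score of 100 or more, 178, 165 and 163 other peaks had median widths of 416, 436 and 433 bp. The widest of them had 2658, 1490 and 1782 bp. The members at that score were 6, 1 and 7, with widths of 947 to 5980, 5922, and 880 to 5837 bp. In replicates 1 and 3 the widths of members and other peaks thus overlapped at that score.

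**Figure D4:**
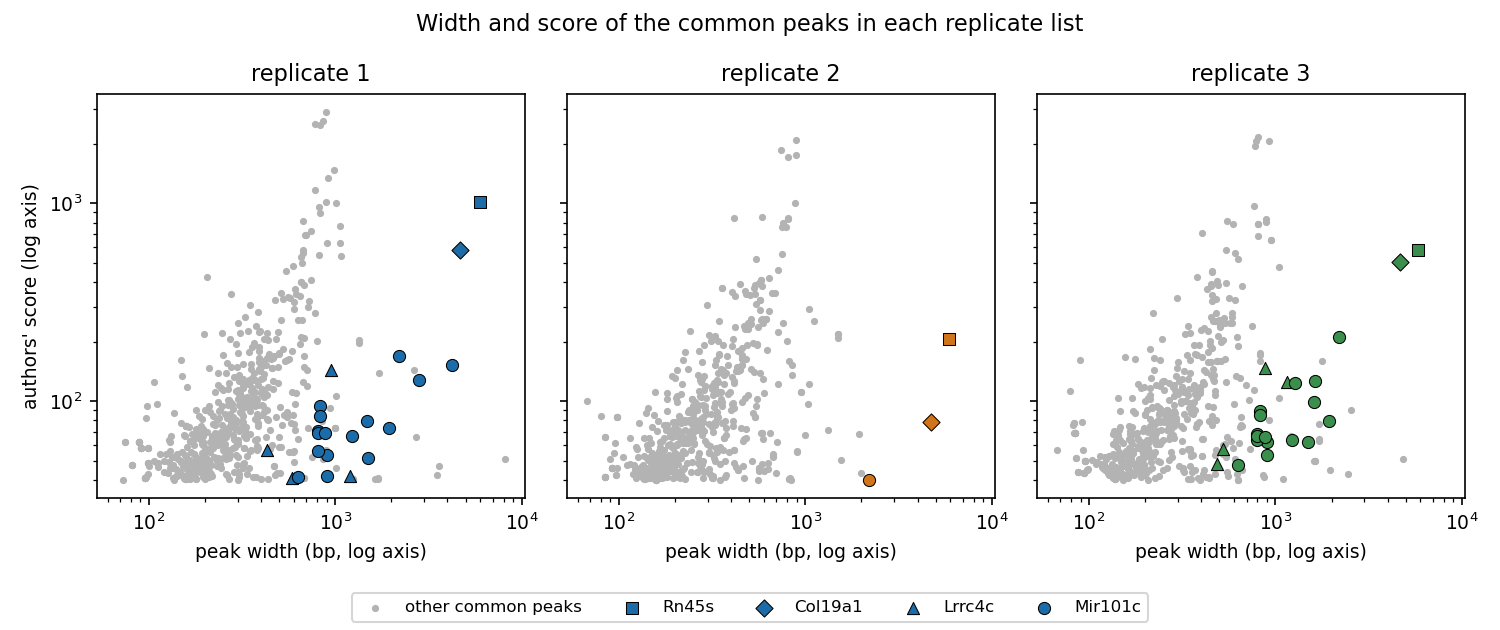
Width in bp and authors' score of each common peak in the list of each replicate, both on log axes; grey points are other common peaks and coloured symbols the 4 loci. Rn45s and Col19a1 lie to the right of all other peaks of similar score in each list, and replicate 2 shows 3 coloured symbols.

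Not every wide peak lay in these loci. Of the 10 widest common peaks, 5 were members (Rn45s, Col19a1 and 3 near Mir101c), and the others had G530011O06Rik, Gm9758, Mir6546, Gm3376 and 2700054A10Rik as nearest genes. The widest of all, 8188 bp on chromosome X near G530011O06Rik, scored 50.9 and 51.3 in replicates 1 and 3 and had no peak in replicate 2. All 5 of these others were in replicates 1 and 3 only. Of the 10 widest, the 3 found in every list were Rn45s, Col19a1 and the first Mir101c peak. All 8 satellite peaks of 1000 bp or more were members.

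Genes of the machinery for these sequences were read from lists written with the design. Of 34 genes of RNA polymerase I and ribosome biogenesis, 1 stood nearest to a common peak. This was Taf1c, a subunit of the polymerase I selectivity factor SL1, with 3 common peaks 2670 to 4735 bp downstream of its start site. Of 26 genes of pericentromeric heterochromatin, such as Cbx5 and Suv39h1, 0 matched by symbol. Kmt5b is in this list, and under its older symbol Suv420h1 it was nearest to a common peak of 236 bp. That peak scored 60.3 in replicate 1 and 71.0 in replicate 2. By symbol, 490 of 21896 protein-coding genes of the RefSeq table (2.24%) stood nearest to a common peak. Symbols were matched as written, so all these counts can miss genes that carry an older name.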

How the data were processed

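The authors deposited 1 peak list per SOX3 ChIP sample, with positions and a score per peak of no stated scale, and 1 table of common peaks. Bowtie2 2.0.0 and the mm9 build are given, per the submitters' processing notes, and libraries were 50 bp single reads per the labels' protocols. Peak names begin with MACS. How the peak caller was set, and how duplicates and reads that fit several places were handled, is not stated in the labels or headers; these steps bear directly on repeated sequence. Per the file headers, the common table holds peaks of at least 2 samples, annotated by HOMER's annotatePeaks.pl. Its deposited distance to the start site, in bp, was taken from the peak midpoint: measured so, the 16 Mir101c rows gave 1 start site. Its deposited score, 0 in each of the 778 rows, was left out. In all 545 common peaks of 2 lists the table had the edges of the lowest-numbered list, so 19 members carry the edges of replicate 1.

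Start positions were made 1-based. A common peak was assigned to a list on an overlap of at least 1 bp. A locus joined member peaks within 50 kb. Work was done in Python 3.11.15 with pandas 2.3.3, and overlap counting was tested on simulated intervals. Nothing was tested for significance, since 1 group has no contrast. The labels do not tie testes to animals, so SDs measure the spread between samples. The genes named are the 4 members, the nearest genes of the 10 widest common peaks and those of every other satellite or rRNA repeat peak. Genes of the lists written with the design (Taf1c, Cbx5, Suv39h1, Kmt5b) are named as well. The retrotransposon peaks of the closing section were chosen after their values were seen. The members and lists were chosen with earlier results of these data known. RefSeq tables for GRCm38.p6 gave names and microRNA sequences only; 3 of the 4 member genes matched there. The alternatives tried were a 50% reciprocal overlap, joining of peaks within 1 kb, a score of at least 60, other margins, and leaving out each replicate.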

Additional observations from a re-analysis of the deposited data

How the results depend on the processing

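The number of members found in every list remained 3 with a 50% reciprocal overlap and with peaks within 1 kb counted as 1, which left 8 units, and was 2 at a score of 60 or more. Leaving out a replicate gave 3 to 22 members in both remaining lists, with 22 when replicate 2 was left out. The median width of the members, 926 bp, ran from 926 to 4706 bp when a replicate was left out; the higher value, without replicate 1 or 3, rests on the 3 peaks of replicate 2. It was 4989 bp with peaks within 1 kb merged and, in an alternative chosen after seeing the data, 4706 bp by the widths of replicate 2. The mean number of peaks per list at Lrrc4c, 2.67, was 1.0 at a score of 60 or more. Over leaving out each replicate it ran from 2.0 to 4.0 at Lrrc4c and from 9.0 to 18.5 at Mir101c. The highest scores were the same under a 50% reciprocal overlap. No paired analysis was possible because no list of the input sample was analysed here, which leaves 1 group. Depth is unknown, so the absence of a peak in replicate 2 is an absence of a call, not of signal.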

Other observations

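Some retrotransposon copies carried equal scores; those named here were chosen after their values were seen, for that equality. A set of 5 common peaks in IAPEz-int, the internal part of an LTR retrotransposon, lay on chromosomes 1, 11, 12, 13 and X near Atp1a4, Utp6, Rab10os, BC048507 and Vsig1. Each was 88 bp wide in the narrower list and scored 62.5 in replicate 1 and 45.9 in replicate 2. Another 5, in L1 elements (L1Md_A or L1Md_T) near 1810007C17Rik, Cbln2, Fhit, Plxdc2 and Sybu, were 95 bp wide with the same edges in replicates 1 and 3. Each of these scored 41.0 in replicate 1 and 50.2 in replicate 3. Within each of these sets the 5 copies thus carried 1 score per list, although they lay on different chromosomes. Of all common peaks in LTR or LINE repeats, 46 of 113 in replicate 1, 41 of 112 in replicate 2 and 59 of 122 in replicate 3 shared their score with another of these repeats (40.7, 36.6 and 48.4%). Among all common peaks, 25.3, 32.3 and 31.4% shared a score with another common peak of the same list. Among all peaks of the lists of replicates 1, 2 and 3, 71.2, 70.0 and 72.8% shared a score within their list. These shares were counted in pools of different size, so they cannot be compared directly, and equal scores were common in every list. Scores are deposited to 2 decimals, so equal values can also be unrelated peaks.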
